A study of Mus musculus with 12 samples.

Results

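The genes described here are 10 markers shared by both classes of medium spiny neuron, the projection neurons that make up most of the striatum. They were chosen by name, and their peaks are the rows of 4 annotated H2A.Z peak lists that carry one of these names at any distance from a start site. All 10 stand among the 16758 gene names in the lists, which hold only names with a peak in at least 1 list. H2A.Z, a variant of histone H2A, was mapped by ChIP-seq in the mouse nucleus accumbens, with total histone H3 alongside (not analysed here). The 12 H2A.Z samples fall into 4 conditions of 3 samples. In SS animals received saline at both stages, in SC saline and later cocaine (acute in the labels), in CS cocaine and later saline (withdrawal), and in CC cocaine at both stages (challenge). The labels used here give no dose, interval, genotype, age or sex and do not say whether animals were pooled. Each condition has 1 list with no values per sample, so nothing below has a replicate error, no difference between conditions was tested and no p-value is given. The nucleus accumbens was taken whole, so fewer medium spiny neurons and less H2A.Z in each of them cannot be told apart.

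Medium spiny neurons read dopamine and adenosine through the cAMP pathway. The stimulatory G protein of these cells drives adenylyl cyclase, cAMP activates protein kinase A, and phosphodiesterases end the signal. Protein kinase A turns DARPP-32 into an inhibitor of protein phosphatase 1, which prolongs the phosphorylation of its targets. A small set of transcription factors sets up and maintains the identity of the cells. H2A.Z typically sits in the nucleosomes that flank a start site, most often at CpG-rich promoters.

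Of the 10 genes, 7 act in signalling. Ppp1r1b encodes DARPP-32. Gnal encodes the G protein subunit that couples dopamine and adenosine receptors to the cyclase, and Adcy5 encodes the main striatal adenylyl cyclase. Pde10a and Pde1b encode phosphodiesterases for cyclic nucleotides, the latter activated by calcium and calmodulin. Rgs9 encodes a protein that speeds the switching off of inhibitory G proteins, and Ptpn5 encodes the striatum-enriched tyrosine phosphatase STEP. The other 3 are transcription factors: Bcl11b (also known as CTIP2), needed for medium spiny neuron differentiation, the forkhead factor Foxp1, and the retinoic acid receptor Rarb.

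Start sites of the same gene differed in whether they carried H2A.Z, and the sequences show 1 way in which they differed. RefSeq promoter windows, 250 bases before to 50 bases after a start on GRCm38.p6 (the assembly that mm10 names), were found for 8 of the 10 genes, 14 windows in all. Of these, 6 were overlapped by an SS peak and 8 were not. Windows of Foxp1 and Pde1b are printed as pairs from 1 gene each, the first of each pair overlapped by an SS and an SC peak and the second by no peak in any list. Capitals mark CpG dinucleotides, and all runs read 5′ to 3′ along the gene. The windows are chr6:99028249-99028548 and chr6:99266466-99266765 (minus strand) for Foxp1, and chr15:103502784-103503083 and chr15:103506876-103507175 (plus strand) for Pde1b.
Foxp1 start with peaks: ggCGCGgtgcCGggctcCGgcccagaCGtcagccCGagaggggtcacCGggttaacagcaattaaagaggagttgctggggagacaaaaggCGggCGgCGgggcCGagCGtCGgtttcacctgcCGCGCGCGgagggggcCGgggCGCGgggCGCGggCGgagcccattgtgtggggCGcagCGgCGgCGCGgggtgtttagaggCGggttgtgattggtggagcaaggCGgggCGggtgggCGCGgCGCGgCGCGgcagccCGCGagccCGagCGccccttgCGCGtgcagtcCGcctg
Foxp1 start without peaks: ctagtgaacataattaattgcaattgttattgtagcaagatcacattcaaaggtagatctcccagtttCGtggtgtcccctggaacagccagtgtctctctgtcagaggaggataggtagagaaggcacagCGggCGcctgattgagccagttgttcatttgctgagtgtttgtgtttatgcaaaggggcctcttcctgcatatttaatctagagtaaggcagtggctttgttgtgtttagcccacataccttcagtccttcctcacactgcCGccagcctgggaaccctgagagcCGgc
Pde1b start with peaks: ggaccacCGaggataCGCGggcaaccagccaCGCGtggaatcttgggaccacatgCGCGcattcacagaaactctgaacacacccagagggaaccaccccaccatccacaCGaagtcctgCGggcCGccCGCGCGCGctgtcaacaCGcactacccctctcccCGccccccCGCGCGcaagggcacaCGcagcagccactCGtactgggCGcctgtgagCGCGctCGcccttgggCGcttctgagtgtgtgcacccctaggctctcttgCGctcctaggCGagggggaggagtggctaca
Pde1b start without peaks: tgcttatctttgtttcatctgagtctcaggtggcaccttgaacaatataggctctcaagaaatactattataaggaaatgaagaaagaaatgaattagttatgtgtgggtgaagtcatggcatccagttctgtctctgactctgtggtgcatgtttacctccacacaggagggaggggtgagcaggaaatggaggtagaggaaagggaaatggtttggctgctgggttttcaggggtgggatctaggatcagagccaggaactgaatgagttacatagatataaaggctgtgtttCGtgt

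The Foxp1 window with peaks holds 44 CpG and is 75.3% G or C, and the one without holds 5 and is 48.7% G or C. For Pde1b the numbers are 28 CpG and 67% against 1 CpG and 44%. Over the 6 windows of these genes with an SS peak the number of CpG was between 17 (Rarb) and 44 (Foxp1 and Adcy5), with a median of 26. Over the 8 without it was between 1 (Pde1b) and 19 (Rgs9), with a median of 5.5. The ranges overlap only through the Rgs9 window, which begins at 109298132 on chromosome 11, beside the Rgs9 SS peak that ends at 109298076. This split uses SS peaks alone. The upstream Ptpn5 window, with 6 CpG, counts as without a peak here but was overlapped by an SC peak. Across all 32851 windows in the table the same order holds: the median was 23 in the 13157 windows with an SS peak and 3 in the 19694 without. The windows of these genes thus stand in the same order as all windows, given here as a description. A window without an SS peak is not always a start without H2A.Z nearby. Those of Rgs9 (19 CpG), Bcl11b (9) and the most upstream Foxp1 start (13) lie beside or between SS promoter peaks of the gene. The GC box GGGCGG, searched on both strands, stood in 5 of the 6 windows with an SS peak, against 68.5% of all windows with one, and in 3 of the 8 without, against 13.8% of all windows without one. Over all windows the share was 35.7%. The cAMP response element TGACGTCA stood in none of the 14 windows, against 1.79% of all windows, and no match says only that these letters are not in these windows.

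**Figure D1:**
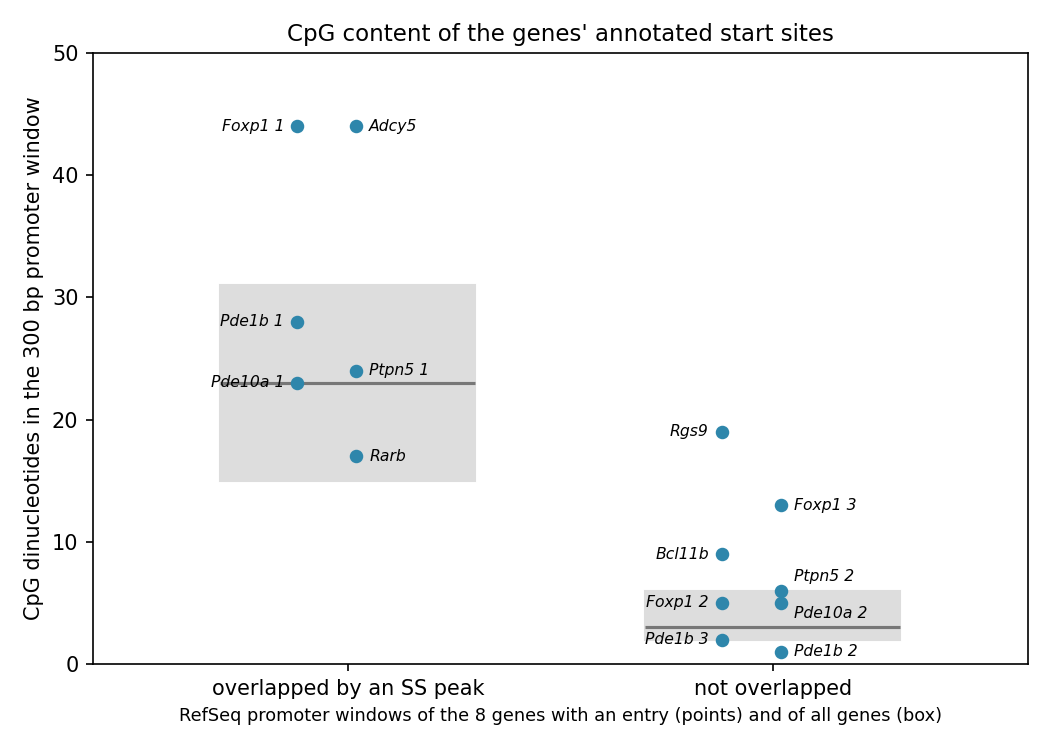
Number of CpG dinucleotides (y axis) in each 300 bp RefSeq promoter window of 8 of the genes (points, numbered along the chromosome where a gene has several), split by overlap with an SS peak. Grey boxes span the middle 50% of all windows of that kind and the line is their median (23 with and 3 without an SS peak); the points with a peak lie between 17 and 44.

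The Rarb and Bcl11b windows are shown for other reasons. The Rarb window (chr14:16575427-16575726, minus strand) holds a direct repeat with a spacing of 5 bases, the form of response element to which retinoic acid receptors bind, in capitals. The Bcl11b window (chr12:108003365-108003664, minus strand) lies wholly in the gap between a pair of peaks, and capitals mark its CpG.
Rarb: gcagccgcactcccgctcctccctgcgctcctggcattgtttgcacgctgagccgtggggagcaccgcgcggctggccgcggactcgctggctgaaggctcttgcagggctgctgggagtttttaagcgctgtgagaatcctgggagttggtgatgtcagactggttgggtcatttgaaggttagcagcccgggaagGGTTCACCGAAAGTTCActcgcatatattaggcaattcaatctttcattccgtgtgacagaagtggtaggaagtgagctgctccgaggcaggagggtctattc
Bcl11b: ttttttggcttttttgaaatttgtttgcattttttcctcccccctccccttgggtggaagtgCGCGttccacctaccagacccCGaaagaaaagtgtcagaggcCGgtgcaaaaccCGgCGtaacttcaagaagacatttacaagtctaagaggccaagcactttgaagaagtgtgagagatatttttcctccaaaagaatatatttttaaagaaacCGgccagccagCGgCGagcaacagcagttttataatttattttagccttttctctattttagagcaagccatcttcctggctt

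The Rarb repeat, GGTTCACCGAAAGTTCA, lies 53 to 37 bases before the RefSeq start. It is the retinoic acid response element for which this promoter is known, through which the receptor controls its own gene. A pair of half-sites, each of them AGGTCA or AGTTCA or their variants GGGTCA and GGTTCA, spaced by 5 bases and searched on both strands, was found in 32 of the 32851 windows. Both the SS peak (chromosome 14, 16574923 to 16575935) and the SC peak (16574766 to 16575868) cover it, and no CS or CC peak does. A match is a description of the sequence and does not show that the receptor was bound.

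Under saline-saline all 10 genes had a promoter peak, defined as a peak whose middle lies within 1000 bp of the start the authors assigned. The share of all gene names with such a peak was 81.1% in SS and 77.3% in SC, where gene names without a peak in any list are not counted. It was 25.8% in CS and 20.3% in CC. The 10 genes carried 17 promoter peaks and 4 other peaks in SS and 17 and 8 in SC. They had no peak of any kind in CS and a single one, at Gnal, in CC. The lists themselves differ: SS has 24655 peaks with a median width of 734 bp, SC 23170 of 727 bp, CS 6417 of 110 bp and CC 4827 of 107 bp. The shortest peak is 321 bp in SS and 69 bp in CS, so even the shortest SS peak is wider than the median CS or CC peak. The part of these differences in the counts for CS and CC was not tested.

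**Figure D2:**
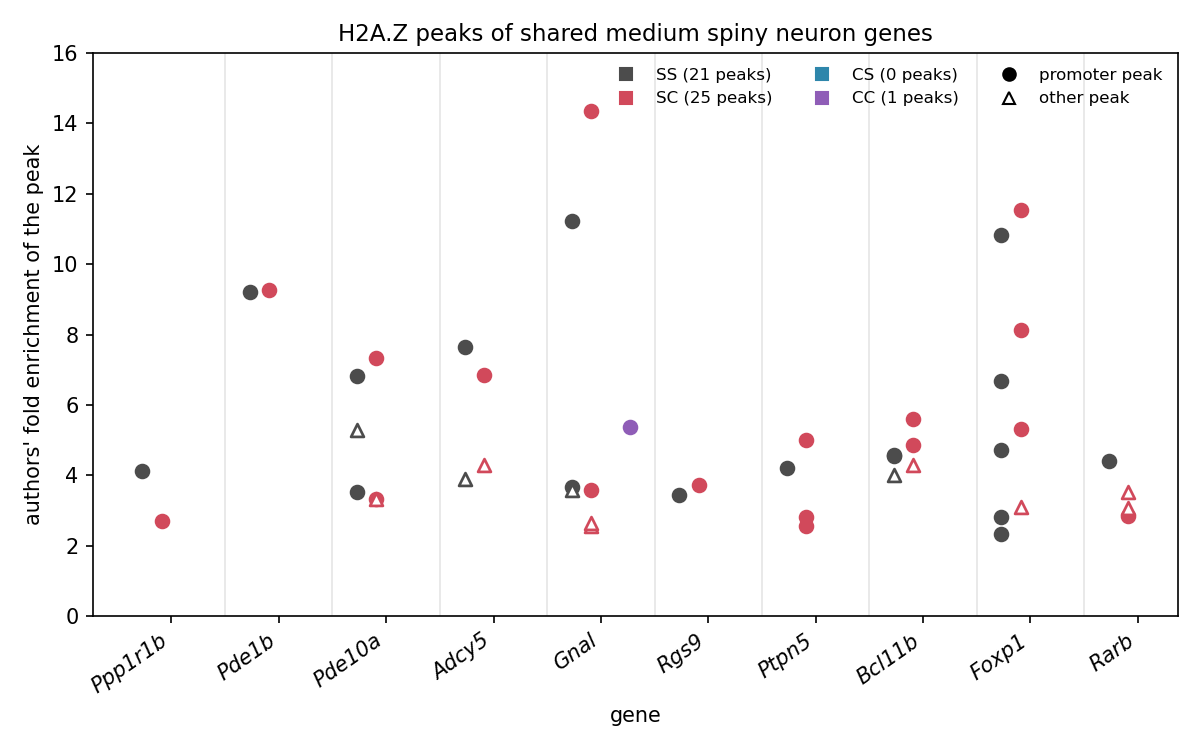
Authors' fold enrichment (y axis) of every peak assigned to the 10 genes (x axis), coloured by list, with filled circles for promoter peaks and open triangles for other peaks. Fold enrichment is not on a common scale between lists. SS and SC peaks stand at every gene, CS has none, and CC has 1, at Gnal (5.38).

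The strength of the promoter peaks ranged widely among the genes. Strength is given as the fold enrichment over background that the authors computed for each peak, which ranks peaks within a list and does not measure a change between lists. The strongest promoter peak of a gene ranged in SS from 3.43 (Rgs9) to 11.2 (Gnal) with a median of 5.71, close to the median of 5.65 over all SS promoter genes. In SC it ranged from 2.69 (Ppp1r1b) to 14.3 (Gnal) with a median of 6.24, where the median over all SC promoter genes was 6.59. In each of the lists 5 of the 10 genes stood above that median. As a group the genes were thus neither at the strong nor at the weak end of either list.

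Among the cAMP genes, Gnal carried the strongest peak. Its first start site (ENSMUSG00000024524, chromosome 18, 67088149 to 67089243 in SS) had a fold enrichment of 11.2 in SS, at percentile 96.4 of that list, 14.3 in SC and 5.38 in CC. The second start site, with peaks from 67133614 in SS and 67133150 in SC, was weaker at 3.65 and 3.58 and had none in CC. Adcy5 (ENSMUSG00000022840, chromosome 16, 35154527 to 35155521) had 7.63 in SS and 6.86 in SC. Behind it, inside the gene, stood a weaker peak in both lists, 3.89 in SS and 4.28 in SC, with its middle 1562 and 1469 bp past the start.

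The phosphodiesterase genes differed from each other in layout. Pde1b (ENSMUSG00000022489) had a single peak in each list, at chromosome 15, 103502813 to 103503473 in SS, with fold enrichments of 9.20 in SS and 9.26 in SC. Pde10a (ENSMUSG00000023868) had peaks at 2 start sites. The stronger, on chromosome 17 from 8800607 to 8802154 in SS, lay at an internal start site and had 6.83 in SS and 7.33 in SC. At 1547 bp in SS it was also the widest peak of the 10 genes in that list, as it was in SC at 1562 bp. The weaker had its middle at −665 bp from a start further upstream in SS and at −848 bp in SC, with 3.52 and 3.34.

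Ppp1r1b, the DARPP-32 gene, had a promoter peak in the lower part of either list. In SS it spanned chromosome 11, 98348387 to 98349095 (ENSMUSG00000061718) with a fold enrichment of 4.12, at percentile 45.3. In SC it spanned 98348570 to 98349108 with 2.69, at percentile 3.11. Rarb had a similar pair of values, 4.39 in SS at percentile 51.3 and 2.85 in SC at percentile 6.14. The Ppp1r1b and Rarb peaks therefore rank low within SC, near the edge of what that list holds, and this is not a measured loss, since ranks of lists that differ in length show no change. Rgs9 (ENSMUSG00000020599, chromosome 11, 109297590 to 109298076 in SS) had 3.43 in SS and 3.73 in SC, the lowest SS value of the 10. Ptpn5 (ENSMUSG00000030854) had 4.20 in SS and 5.00 in SC at its main start (chromosome 7, 47132056 to 47133072 in SS). In SC alone it had weaker peaks at 2 further start sites, with 2.81 and 2.55.

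Among the transcription factor genes, Foxp1 and Bcl11b each carried several peaks. Foxp1 (ENSMUSG00000030067, chromosome 6) had promoter peaks at 5 start sites in SS, with fold enrichments of 10.8, 2.81, 4.73, 2.35 and 6.68 in the order of their coordinates. Those of 10.8, 4.73 and 6.68 were overlapped in SC by peaks of 11.5, 5.30 and 8.12, and the weakest, 2.81 and 2.35, had no overlapping SC peak. The strongest lay at an internal start (99027940 to 99028828 in SS), and 424210 bp without a Foxp1 peak in SS separated the internal from the upstream starts. Bcl11b (ENSMUSG00000048251, chromosome 12) had 3 peaks in each list. A pair flanked its RefSeq start at 108003414, with 4.55 and 4.59 in SS and 4.85 and 5.61 in SC. The remaining peak had 4.01 in SS and 4.29 in SC. Its middle lay at −2716 bp in SS and −2701 bp in SC from the start the authors assigned to it, at 108003602. Between the flanking peaks lay a gap of 424 bp (SS) or 446 bp (SC), which contained the whole RefSeq window printed above, which is 43% G or C. The most upstream Foxp1 window in RefSeq (chr6:99520944-99521243) lay in such a gap too, 515 bp long in SS.

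**Figure D3:**
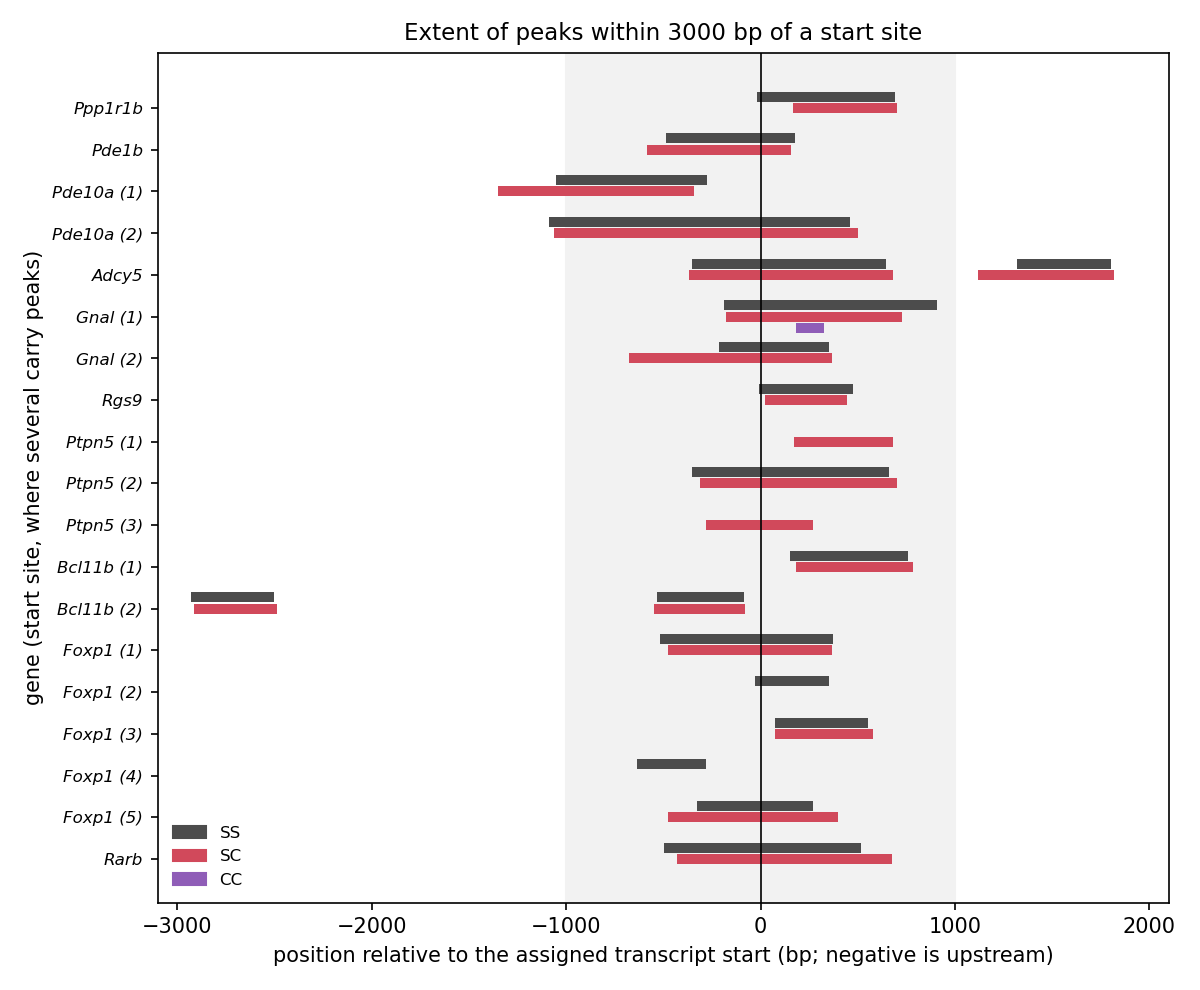
Extent of each peak of the 10 genes that lies within 3000 bp of its assigned transcript start (x axis, bp, negative upstream), 1 row per start site and in order of coordinate where a gene has several; bars are SS (grey), SC (red) and CC (violet), and the shaded band marks 1000 bp on each side. SS and SC peaks share their positions at most starts, Bcl11b peaks leave the start itself free, and the CC peak of Gnal lies inside the SS and SC peaks.

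Several of these genes had more than 1 promoter peak in a list. Such peaks can lie close together, as does the Bcl11b pair around its RefSeq start, 424 bp apart in SS. In SS 4 of the 10 (Foxp1, Gnal, Pde10a and Bcl11b) had at least 2 promoter peaks, against 11.7% of all SS promoter genes. In SC 5 of the 10 had them, the same 4 and Ptpn5, against 11.9%. The genes are long, with a median RefSeq length of 116119 bp against 27195 bp for the 11699 SS promoter genes matched by symbol. Among SS promoter genes at least as long as that median, 24.4% had at least 2 promoter peaks. The part of gene length in the count was not tested further.

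Saline-cocaine against saline-saline concerns a first cocaine exposure. All 10 genes kept a promoter peak in SC (100%, 95% exact binomial interval 69.2 to 100%), against 88.2% of all SS promoter genes, a share inside that interval. This interval, like those for CS and CC below, treats the genes as independent random draws, but they were chosen by name. It does not decide whether they differ from promoters in general. By position, 15 of the 17 SS promoter peaks were overlapped by an SC peak, against 89% of all SS promoter peaks. The exceptions were the weak Foxp1 peaks of 2.81 and 2.35. The middles of the 18 overlapping pairs, other peaks included, lay 3 to 222 bp apart with a median of 36.5 bp, and over all SS promoter peaks that median was 52 bp. Cutting both lists to their 4827 strongest peaks left only Pde1b, Gnal and Foxp1 in SS and only Gnal and Foxp1 in SC.

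Other peaks, those over 1000 bp from a start, differed more between these lists than promoter peaks did. SS had 4, at Pde10a, Adcy5, Gnal and Bcl11b. SC had 8, at the same 4 genes and at Foxp1 and Rarb, with 2 each at Gnal and Rarb. An other peak was listed for 18.6% of all gene names in SS and for 18.6% in SC. By peaks, other peaks were 19.0% of those of the 10 genes in SS, against 20.5% of all assigned peaks. In SC they were 32% against 22.5%. The genes are long, and the part of gene length in these counts was not tested. The Adcy5, Bcl11b and Gnal peaks of SS were overlapped in SC, 3 of 4, where 58.2% of all such SS peaks were. Of the 8 in SC, 3 were overlapped in SS, where 54.3% of all such SC peaks were. The exception in SS was a Pde10a peak 66289 bp into the gene (chromosome 17, 8592789 to 8593392) with a fold enrichment of 5.29. In SC Pde10a had another one instead, 120762 bp in, with 3.32. The Rarb peaks of SC lay 148705 and 220460 bp past the start that the authors assigned, with 3.52 and 3.07, and the remaining SC ones were 3.09 at Foxp1 and 2.63 at Gnal. All 8 SC other peaks stood below the SC median of 4.66 over all peaks. This includes the 5 without an SS counterpart and the 3 with one (Adcy5 4.28, Bcl11b 4.29 and Gnal 2.55).

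Cocaine-saline against saline-saline concerns a cocaine history followed by saline. None of the 10 genes had a peak in CS (0 of 10, interval 0 to 30.8%). Over all SS promoter genes 28.8% had a promoter peak in CS, a share just below the upper limit of the interval. The interval treats the 10 genes as independent random draws, but they were chosen by name. It therefore does not decide whether they differ from promoters in general, which was not tested. By position 0 of their 17 SS promoter peaks were overlapped by a CS peak of any name, against 27.1% of all SS promoter peaks. No interval was set on this count, and several of these peaks belong to the same gene.

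Cocaine-cocaine against saline-saline concerns cocaine after a cocaine history. Gnal alone kept a promoter peak (1 of 10, interval 0.253 to 44.5%), against 22.7% of all SS promoter genes. The peak was 143 bp wide (chromosome 18, 67088521 to 67088664), lay inside both the SS and the SC peak of the first Gnal start, and had its middle 256 bp past that start. Its fold enrichment of 5.38 stood at percentile 74.8 of the CC list. Its −log10 q was 4.41, so it drops out when peaks must reach 5, and then 0 of 10 remain against 3.57% of all SS promoter genes. By position 1 of the 17 SS promoter peaks was overlapped in CC, against 21.3% of all. All 3 comparisons rest on the same SS list. Taking the patterns over all 4 lists, 9 of the 10 genes had promoter peaks in SS and SC and in neither CS nor CC, as had 51% of all SS promoter genes, and Gnal had the pattern SS, SC and CC without CS, as had 9.88%.

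Strength in SS was set beside presence in the later lists by dividing all SS promoter genes into 5 equal groups, from group 1 (weakest) to group 5 (strongest). Rgs9 falls in group 1, Ppp1r1b, Ptpn5, Bcl11b and Rarb in group 2, Pde1b, Pde10a and Adcy5 in group 4, and Gnal and Foxp1 in group 5. Over all SS promoter genes the share with a promoter peak in CS was 10.6%, 31.9%, 44.6%, 26.4% and 30.7% from group 1 to group 5. In CC it was 7.40%, 25.1%, 34.9%, 21.1% and 25.0%. Group 3, with the highest share in either list, holds none of the 10 genes. Foxp1, close to Gnal in SS (10.8 against 11.2), had no CC peak.

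**Figure D4:**
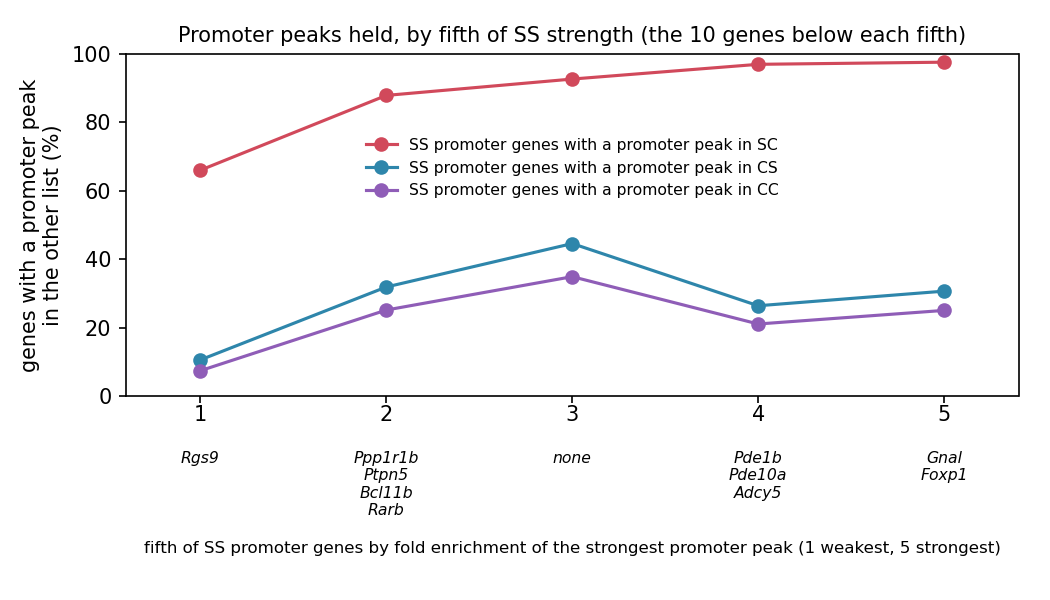
Share of all SS promoter genes (y axis, %) that also had a promoter peak in SC (red), CS (blue) or CC (violet), in 5 equal groups by SS strength (x axis), with the names of the 10 genes under the group each falls in. The share in SC climbs from 66.0% to 97.6%, while those in CS and CC are highest in group 3, which holds none of the 10.

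Relatives and partners of the 10 genes were taken from lists set by function and sequence family, and their counts read against the shares of all SS promoter genes with a promoter peak in SC (88.2%), CS (28.8%) and CC (22.7%). Of 25 family relatives 21 had a promoter peak in SS, and 20 of these had one in SC (95.2%), 3 in CS (14.3%) and 7 in CC (33.3%). The relatives with one in CS were Rgs7, another regulator of G protein signalling (9.86 in SS, 3.82 in CS), Foxp4 (9.91 in SS, 4.02 in CS and 5.08 in CC) and the phosphodiesterase gene Pde1c (5.56, 4.64 and 4.92). Foxp4 and Pde1c were also in CC, with Foxp2 (3.99 in SS, 4.08 in CC), the cAMP phosphodiesterase gene Pde4b (4.75, 4.78), the inhibitory G protein gene Gnai1 (7.91, 4.58), the tyrosine phosphatase gene Ptprr (4.08, 5.26) and the retinoic acid receptor gene Rarg (4.99, 4.80). The CC peaks of Rarg and Ptprr lay at another start site than the strongest SS peak of the gene. Gnao1, the inhibitory G protein gene most abundant in brain, had promoter peaks in CS (5.35) and CC (4.35) and none of its name in SS or SC. The authors' lists give the SS and SC peaks at that place (6.42 and 6.58) to 4930488L21Rik, and the CS and CC peaks of Gnao1 overlap those. Like the CC peak of Gnal, all CS and CC promoter peaks of these relatives had a −log10 q below 5. Their values ran from 1.81 (Rgs7 and Foxp4 in CS) to 4.85 (Ptprr in CC).

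Of 23 signalling partners 18 had a promoter peak in SS. Of these, 17 had one in SC (94.4%, against 88.2% of all SS promoter genes), 1 in CS (5.56%, against 28.8%) and 2 in CC (11.1%, against 22.7%). Prkacb, a catalytic subunit of protein kinase A, was in both (8.12 in SS, 3.68 in CS and 4.42 in CC), and Ppp1cc, a catalytic subunit of the phosphatase that DARPP-32 inhibits, was in CC (5.43 in SS, 5.02 in CC). The −log10 q of these peaks was also below 5, at 1.29 (Prkacb in CS), 2.65 (Prkacb in CC) and 3.41 (Ppp1cc in CC). The CS peak of Prkacb lay on chromosome 3 from 146770681 to 146770759, on a weaker SS peak of 3.34, and its CC peak lay from 146813357 to 146813484, on the stronger. Of 18 striatal transcription factor genes 15 had a promoter peak in SS, 14 of these in SC (93.3%), none in CS and 1 in CC (6.67%), which was Foxp2, also among the relatives.

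**Figure D5:**
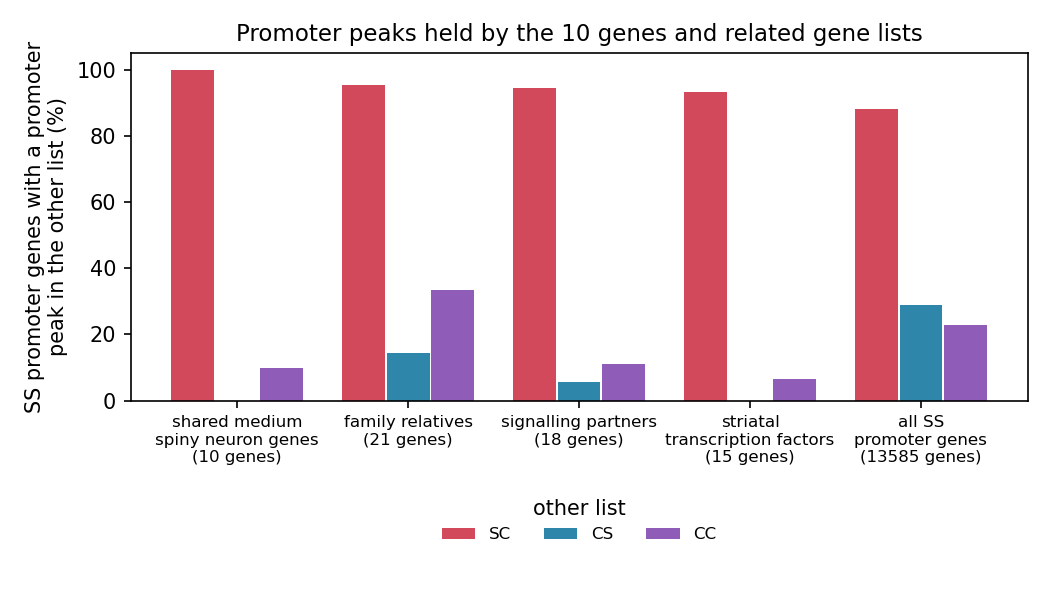
Share of the genes with an SS promoter peak (y axis, %; numbers of genes under each group) that also had one in SC (red), CS (blue) or CC (violet), for the 10 genes, the related lists and all SS promoter genes. SC stands at 88.2% or more in every group, and CS is at 0 for the 10 genes and for the striatal transcription factors.

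Marker genes of neurons and of other cell types are given as a description. A promoter peak is no measure of expression, so the counts do not show which cells the tissue held. SS promoter peaks were listed for 4 of 5 neuronal markers, strongest at Rbfox3 (8.57) and Map2 (8.37) and weaker at Syt1 (4.49). They were listed for 3 of 6 astrocyte markers (Slc1a2 9.40, Slc1a3 4.23 and Gja1 3.48), 2 of 6 oligodendrocyte markers, 1 of 2 precursor markers (Pdgfra 4.42), 3 of 4 endothelial markers and none of 5 microglial markers. In SC the counts were 4, 2, 2, 1, 2 and 0. Markers with a peak of any kind in at least 1 list numbered 4, 4, 2, 2, 4 and 1, in the same order. Among all gene names with such a peak, 81.1% had an SS promoter peak and 77.3% an SC one. Markers named in no list stand outside these shares, and differences between the cell types were not tested. The only promoter peaks of these markers in CS and CC were those of endothelial Kdr in CS (4.69) and oligodendrocyte Cnp in CC (4.01), with a −log10 q of 3.25 and 1.78. Both genes had an SS promoter peak. For comparison, the CS list held a promoter peak for 28.8% of all SS promoter genes, and the CC list for 22.7%.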

How the data were processed

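The 4 peak lists, 1 per condition of 3 samples, were used as the authors deposited them. Per the submitters' processing notes the build is mm10 and the tools were cutadapt, HISAT, SAMtools and MACS2; versions, settings, the control library and any pooling of samples were not given in the sources used here. Per the file headers the authors' caller gave every peak its fold enrichment, a ratio, and its q-value, on a linear scale. The authors deposited a signed distance with each assigned peak in bp, which equalled peak middle minus transcript start within 1 bp in all lists. No assigned peak lay more than 2999 bp upstream of its start. Coordinates are printed as listed.

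Rows were matched by gene name, and the genes and related lists were chosen with earlier results of these data known. From the related lists, genes with a CS or CC promoter peak are named, otherwise the 3 strongest in SS. Lists were compared by name and by overlap of at least 1 bp, with code tested on simulated peaks (Python 3.11.15, pandas 2.3.3, scipy 1.17.1). Intervals are exact binomial (Clopper-Pearson, 95%) and cover counting error only. Promoter windows of 300 bp are from RefSeq (GRCm38.p6) and motifs were chosen after the peaks were seen. Read depth per sample was not analysed here.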

Additional observations from a re-analysis of the deposited data

How the results depend on the processing

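Of 52 recomputed values over 14 results, 42 stayed within 1.5 times of the reported count, the promoter window of 500 bp, the overlap of 50% of the shorter peak and overlap in place of the gene name among them. Requiring a −log10 q of at least 5 left 0 of the genes with a CC promoter peak, 0 of the SS promoter genes held in CC and 0 of 20 SS peaks overlapped in CC. With every list cut to its 4827 strongest peaks, 3 genes had an SS promoter peak and 2 an SC promoter peak, 2 of the 3 were held in SC, 2 of 3 SS peaks were overlapped in SC, and the other peaks numbered 0 in SS and 0 in SC. Fewer peaks enter by construction. With a promoter window of 3000 bp the other peaks in SS numbered 2 in place of 4, since those of Adcy5 and Bcl11b then counted as promoter peaks. CS held no peak of these genes at any distance with all peaks. The q limit, the equal lists and the promoter windows only remove or relabel named peaks. The overlap of 50% of the shorter peak is stricter than the overlap of 1 bp, which already gave 0 in CS. All of these settings had to return 0 for CS again and do not test this absence. The same holds for the other peaks in CC, and these 0 counts are among the 42. Overlap in place of the gene name was free to differ, and it gave 0 of 10 genes in CS. The share of all SS promoter genes held in CS was 28.8% with all peaks, 22.1% with equal lists and 4.37% at a −log10 q of at least 5. No paired analysis was possible because each condition has 1 list and the replicate numbers of the labels stand on no column. For the same reason leaving out samples in turn was not possible.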

Other observations

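Peaks with no gene name lay near several of these genes, and at Ppp1r1b and Rgs9 they were stronger than the gene's own promoter peak. Upstream of Ppp1r1b, 9543 bp before its transcript, an intergenic peak had a fold enrichment of 7.32 in SS (chromosome 11, 98338379 to 98339344) and 8.74 in SC, against 4.12 and 2.69 at the promoter. Upstream of Rgs9, 14350 bp before its transcript, one had 5.23 in SS (chromosome 11, 109312049 to 109312784) and 6.93 in SC, against 3.43 and 3.73. Within 20 kb of the transcript of the strongest promoter peak, 12.2% of SS promoter genes and 10.2% of SC promoter genes had an unassigned peak. Counted in this way, 3 of the 10 genes had one in each of these lists. An unassigned peak stronger than that promoter peak stood there at 2.18% of SS promoter genes and 1.62% of SC promoter genes. Neither the Ppp1r1b nor the Rgs9 peak was overlapped in CS or CC, and the share of all unassigned peaks overlapped there was not computed. These peaks stand outside the naming rule, in which no assigned peak lay more than 2999 bp upstream, and whether they belong to these genes was not tested.

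CS held 2 unnamed peaks near these genes. One lay 19213 bp before the first Pde10a transcript (chromosome 17, 8506119 to 8506200, fold enrichment 5.15, −log10 q 5.04), inside an SS peak of 3.77 and an SC peak of 2.99. Another lay 5966 bp before Ppp1r1b (chromosome 11, 98342399 to 98342478, 3.61, −log10 q 1.38) and overlapped no peak of any other list. CC had no unassigned peak within 20 kb of any of the 10 genes. The share of all genes with such a peak was not computed for CS or CC. These lists hold 797 and 569 unassigned peaks in all, against 5329 in SS and 4208 in SC.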
